A study of Rattus norvegicus with 54 samples.

Results

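Lung gene expression was compared between the 2 litters of rats that had lived in room air, by the counts of 5 lung libraries of litter 6RARA against 8 of litter 4RARA. These are 13 of the 54 libraries of a study of rats at simulated altitude. They were chosen by litter and organ, with animals 6RARA66 and 6RARA68 left out, and no measured level of a gene entered that rule. All animals were Sprague Dawley rats of 6 weeks of age, conceived, born and reared in room air (RA-RA in the labels) by parents bred at 10 weeks, and weaned at day 21. The remaining litters of the study, 3HH and 4HH, lived from conception in a chamber at an equivalent of 9000 feet and 15% inspired oxygen (H-H). Litter 4RARA gave 4 female and 4 male lungs. Litter 6RARA gave 2 females (6RARA65 and 6RARA67) and 3 males (6RARA70, 6RARA71 and 6RARA72). Each litter is a single family, so the tests below measure the spread among littermates, and what differs by family, dam, cage or handling cannot be told apart. The same holds for library composition, which also differed between the litters in the libraries compared.

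A lung holds conducting airways and gas exchange tissue. The airways are lined by multiciliated cells, which move mucus by beating cilia, by secretory club cells and, beneath them, by basal cells. The alveoli are lined by flat type 1 and surfactant-making type 2 cells over a dense capillary bed, and the outer surface by mesothelium. Macrophages, neutrophils and lymphocytes live in the tissue, its vessels and its airspaces. In bulk RNA from a piece of lung, fewer cells of a type and less RNA per cell cannot be told apart, and the piece may hold more or less airway or pleura.

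The DNA just upstream of 2 ciliary and 2 interferon-inducible genes is shown first, because these groups stood on opposite sides of the litter comparison. The windows are the 250 bases before the gene start, from RefSeq on build GRCr8, written 5′ to 3′ on the strand of the gene. Capitals mark each match to GTTGCC, part of the sequence bound by RFX factors of ciliated cells, or to TTTC followed by any 2 bases and TTTC again, a core bound by interferon regulatory factors, found on either strand.
Tekt1: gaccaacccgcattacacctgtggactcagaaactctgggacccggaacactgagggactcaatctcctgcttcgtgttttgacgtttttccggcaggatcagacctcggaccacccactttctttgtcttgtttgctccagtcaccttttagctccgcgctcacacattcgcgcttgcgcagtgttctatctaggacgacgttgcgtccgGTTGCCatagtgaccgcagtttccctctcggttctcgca
Ccno: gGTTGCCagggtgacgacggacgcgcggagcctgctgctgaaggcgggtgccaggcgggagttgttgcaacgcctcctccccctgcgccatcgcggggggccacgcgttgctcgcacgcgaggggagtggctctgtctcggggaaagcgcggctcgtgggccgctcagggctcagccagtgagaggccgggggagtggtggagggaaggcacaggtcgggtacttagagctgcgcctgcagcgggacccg
Irf7: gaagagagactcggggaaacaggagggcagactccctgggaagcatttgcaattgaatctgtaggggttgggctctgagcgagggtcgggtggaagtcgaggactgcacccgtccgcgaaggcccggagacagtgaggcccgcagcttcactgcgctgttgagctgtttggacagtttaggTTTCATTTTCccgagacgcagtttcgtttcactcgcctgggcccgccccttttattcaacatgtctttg
Ifih1: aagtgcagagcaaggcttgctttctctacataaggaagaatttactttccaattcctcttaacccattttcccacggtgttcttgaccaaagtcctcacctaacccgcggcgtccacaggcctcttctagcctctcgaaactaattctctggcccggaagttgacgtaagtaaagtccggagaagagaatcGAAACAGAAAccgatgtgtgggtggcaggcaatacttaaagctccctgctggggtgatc
The Tekt1 window lies at chr10:57479122-57479371 (minus strand) and that of Ccno at chr2:46363824-46364073 (plus strand). The Irf7 window lies at chr1:205800024-205800273 and that of Ifih1 at chr3:67683969-67684218, both on the minus strand. These 4 were the genes of lowest p among members with a match. GTTGCC was found in 8 of the 15 windows of the ciliary list (53.3%) and in 10.4% of the 9368 windows of genes tested. The median log2 fold change of 6RARA over 4RARA was 1.04 with the motif and 1.08 in the 7 members without it. The spaced pair of TTTC was found in 12 of 21 windows of the interferon list (57.1%) against 2.68% of all windows, and the median log2 fold change was −0.12 with it and −0.31 in the 9 members without it. All 15 ciliary members with a window were called, whereas of the interferon members 4 of the 12 with the motif and 6 of the 9 without it were called. The matches are a description of the letters in these windows, and whether members with and without a motif differed was not tested.

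The 13 libraries held 14.3e+06 to 21.9e+06 counts, and each was lung by its markers. Sftpc, surfactant protein C of type 2 cells, lay between 11597 and 17979 CPM (counts scaled to the library total after TMM scaling by edgeR), and the heart muscle gene Myh6 at 14.4 CPM or less. The litters differed in library composition. The share of reads between genes was 18.4% to 20.7% in 4RARA and 21.3% to 24.5% in 6RARA (exact two-sided permutation test, p = 0.00155, adjusted p = 0.00466 over 6 measures). The mitochondrial share was 2.12% to 2.87% against 3.77% to 5.75% (same p values, the smallest that 5 against 8 libraries allow). The RNA integrity number was 7.4 to 10 in 4RARA and 8.6 to 9.5 in 6RARA (exact permutation p = 0.676). Of the libraries left out, 6RARA66 held 1028679 counts with 59.2% of reads between genes, and 6RARA68 held 16421824 counts with 20.3%. The mitochondrial share of 6RARA68 was 2.6%, so both shares of this lung lay within the ranges of 4RARA. Some summed gene levels of 6RARA68 lay above both litters, on a scaling shared by all lungs. Its ribosomal protein list had 105439 CPM, against 30889 to 38519 CPM in 4RARA and 30368 to 44305 CPM in 6RARA. Its erythroid list had 10189 CPM, against 652 to 2317 CPM and 416 to 1842 CPM. Its monocyte list had 50477 CPM, against 18175 to 23252 CPM and 16546 to 23983 CPM. Its ciliary list, at 1700 CPM, lay within the range of 6RARA. Library batch crossed the litters, with 1, 4 and 3 libraries of 4RARA and 2, 1 and 2 of 6RARA in batches 1, 2 and 3.

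**Figure D1:**
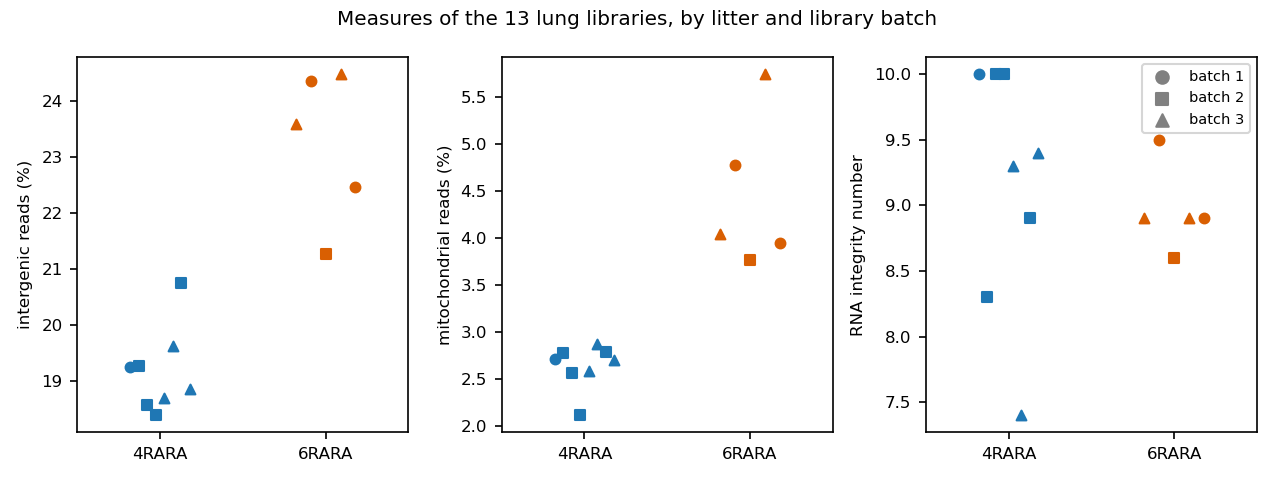
Library measures of the 13 lungs by litter (vertical axes in percent of reads or RNA integrity units, points are libraries, symbols give the batch). The intergenic and mitochondrial shares of the litters do not overlap, and the RNA integrity numbers do.

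The litters differed in a large part of the transcriptome. Of 12220 genes tested, 5090 (41.7%) were called, at an adjusted p under 0.05 by the edgeR quasi-likelihood test with sex in the model. Of these, 2735 (22.4%) were higher in 6RARA and 2355 (19.3%) lower. Most differences were small: the median absolute log2 fold change was 0.47 among called genes, and 1904 were called at 1.5-fold or more and 579 at 2-fold or more. The libraries of the litters did not overlap at 2232 genes (18.3%), 1082 higher (8.85%) and 1150 lower (9.41%). With the scaling of DESeq2 the higher and lower calls numbered 2475 and 2539, so the split between directions depends on the scaling. With the intergenic share in the model 842 genes were called, 309 higher and 533 lower. Among the 13 libraries the intergenic and mitochondrial shares separated the litters, so that litter and library composition cannot be told apart in these calls. The left-out 6RARA68 had shares within the ranges of 4RARA, but ribosomal protein, erythroid and monocyte levels above both litters. With 6RARA68 included 4061 genes were called. With batch in the model 4246 genes were called, 2228 higher and 2018 lower. Within batches 1, 2 and 3, of 3, 5 and 5 libraries, 37, 620 and 2020 genes were called. Batch 1 held 1 lung of 4RARA and batch 2 held 1 of 6RARA, so within-batch values there rest on a lone animal, assumed to vary like the others. Rank correlation over genes was 0.948 to 0.982 between libraries of different litters, with medians of 0.989 within 4RARA and 0.985 within 6RARA, and the first principal component, with 41.7% of the variance, separated the litters.

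Genes of multiciliated cells were higher in 6RARA. Of 20 ciliary genes tested, 19 rose and 1 fell, where 22.4% and 19.3% of all genes did, with a median log2 fold change of 1.07 against 0.04 over all genes tested. Their summed level lay between 638 and 822 CPM in 4RARA and between 1233 and 1831 CPM in 6RARA, and at 18 of the 20 the libraries of the litters did not overlap, all higher, against 8.85% of all genes. Rsph1, a radial spoke protein of the axoneme (chr20:9998699-10013191 on rn6), had 11.4, 15.4 and 19.0 CPM as lowest, median and highest value in 4RARA. In 6RARA it had 38.3, 62.2, 43.3, 46.4 and 38.9 CPM in animals 65, 67, 70, 71 and 72. Every 6RARA lung was above every 4RARA lung, with a log2 fold change of 1.57 ± 0.14 (standard error, SE) and an adjusted p of 1.65e-06.

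Tekt1, a tektin of ciliary microtubules, had 14.8 to 18.8 CPM in 4RARA and 35.6, 46.7, 35.7, 28.4 and 31.0 CPM in 6RARA (log2 fold change 1.15 ± 0.10, adjusted p = 2.12e-06). Ccno, a cyclin needed to make the many centrioles of these cells, had 3.07 to 5.83 CPM against 13.8, 16.9, 11.1, 8.04 and 10.1 CPM (1.41 ± 0.13). Neither gene overlapped between the litters. Ak7 (1.23 ± 0.12), an adenylate kinase of cilia, and Cfap52 (1.06 ± 0.10) were also higher without overlap. Foxj1, the transcription factor that commands the motile cilia programme, had 30.4 to 86.1 CPM in 4RARA and 60.3 to 133 CPM in 6RARA (1.04 ± 0.19), and the litters overlapped through animal 4RARA39 at 86.1 CPM. The single member that fell was Rfx3, a transcription factor of ciliated and other cells (−0.40 ± 0.11, adjusted p = 0.0103). Foxj1, Rfx3 and Ccno were named after their values were seen.

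The largest rises by the naming rule included genes outside the list. Sstr3, a somatostatin receptor known from primary cilia, had 0.562 to 1.61 CPM in 4RARA and 9.56, 10.1, 10.1, 3.78 and 5.72 CPM in 6RARA (3.15 ± 0.26, adjusted p = 1.07e-06). Ttc30a, which serves transport within cilia (1.71 ± 0.20), the centrin Cetn4 (1.51 ± 0.18) and the cilium-associated anchoring protein Akap14 (1.55 ± 0.21) rose with no overlap. Sox2, a transcription factor of airway epithelium, had 7.33 to 13.2 CPM in 4RARA and 19.7 to 40.1 CPM in 6RARA (1.54 ± 0.16). The list median was 0.92 to 1.1 leaving out each library in turn, and 1.06 with batch in the model, where 19 members were called higher and 1 lower. It was 1.14, 0.99 and 0.93 within batches 1, 2 and 3, where 0, 6 and 18 members were called, and 0.77 with the intergenic share in the model, where 4 were called higher and 1 lower. The left-out animal 6RARA68 had a summed level of 1700 CPM, on a scaling shared by all 29 lungs.

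Genes of secretory airway cells rose in part. Of 14 tested, 6 rose and 1 fell, with a median of 0.52. The share called was 50.0% against 41.7% of all genes, and the share that rose 42.9% against 22.4%. Scgb1a1, the main secreted protein of club cells (chr1:225279698-225283246), had 4442, 5330 and 5941 CPM as lowest, median and highest in 4RARA. In 6RARA it had 12788, 19205, 13946, 11172 and 11700 CPM, so that the lowest 6RARA lung stood above all of 4RARA (1.39 ± 0.12, adjusted p = 1.08e-06). Scgb3a2, a further secretoglobin of airway cells, had 260 to 374 CPM against 738, 1091, 866, 480 and 591 CPM (1.28 ± 0.17). Agr2, which folds mucins, rose by 1.17 ± 0.18 on the log2 scale, and Dmbt1, a secreted mucosal defence protein, was the member that fell (−1.05 ± 0.20). The summed level of the list lay at 6932 to 9222 CPM in 4RARA and 13987 to 23628 CPM in 6RARA. The median was 0.94, 0.40 and 0.36 within batches 1, 2 and 3.

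Some airway genes varied widely inside 6RARA as well. Aldh1a7, an aldehyde dehydrogenase and the largest rise by the naming rule (chr1:240561951-240601789), had 1.12 to 2.45 CPM in 4RARA and 5.12, 126, 75.7, 40.1 and 83.1 CPM in 6RARA (5.12 ± 0.60, adjusted p = 7.49e-05). Animal 6RARA65 was thus close to 4RARA and the other 4 far above it. Bpifa1, a secreted protein of upper airways, had 0.0511 to 2.46 CPM in 4RARA and 7.19, 44.9, 25.0, 0.0676 and 11.4 CPM in 6RARA (4.48 ± 1.01). Animal 6RARA71 had as little of it as 4RARA. Scgb3a1 had 2.44 to 26.6 CPM against 42.5, 187, 79.5, 13.5 and 85.2 CPM (2.53 ± 0.71), and its call was lost without 6RARA67 (adjusted p = 0.07). Bpifa1 and Scgb3a1 were named after their values were seen.

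Of 5 basal cell genes 3 rose, where 22.4% of all genes did. Aqp3 (−1.34 ± 0.52, adjusted p = 0.0555) and Ngfr (−0.35 ± 0.20) had negative values and did not pass the test. The summed level overlapped widely, at 12.8 to 31.7 CPM in 4RARA (median 16.4) and 16.5 to 36.6 CPM in 6RARA (median 17.2). The basal keratin Krt14 had 0.175 to 0.91 CPM in 4RARA and 2.98 to 5.44 CPM in 6RARA (2.88 ± 0.30, adjusted p = 4.59e-06). Krt15 (0.80 ± 0.23) and Krt17 (1.56 ± 0.44) overlapped between litters, and both lost their call without 6RARA67 (adjusted p = 0.0932 and 0.0865). The list median of the log2 fold change, 0.80, became 0.20 without 4RARA40 and 0.46 without 6RARA67.

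**Figure D2:**
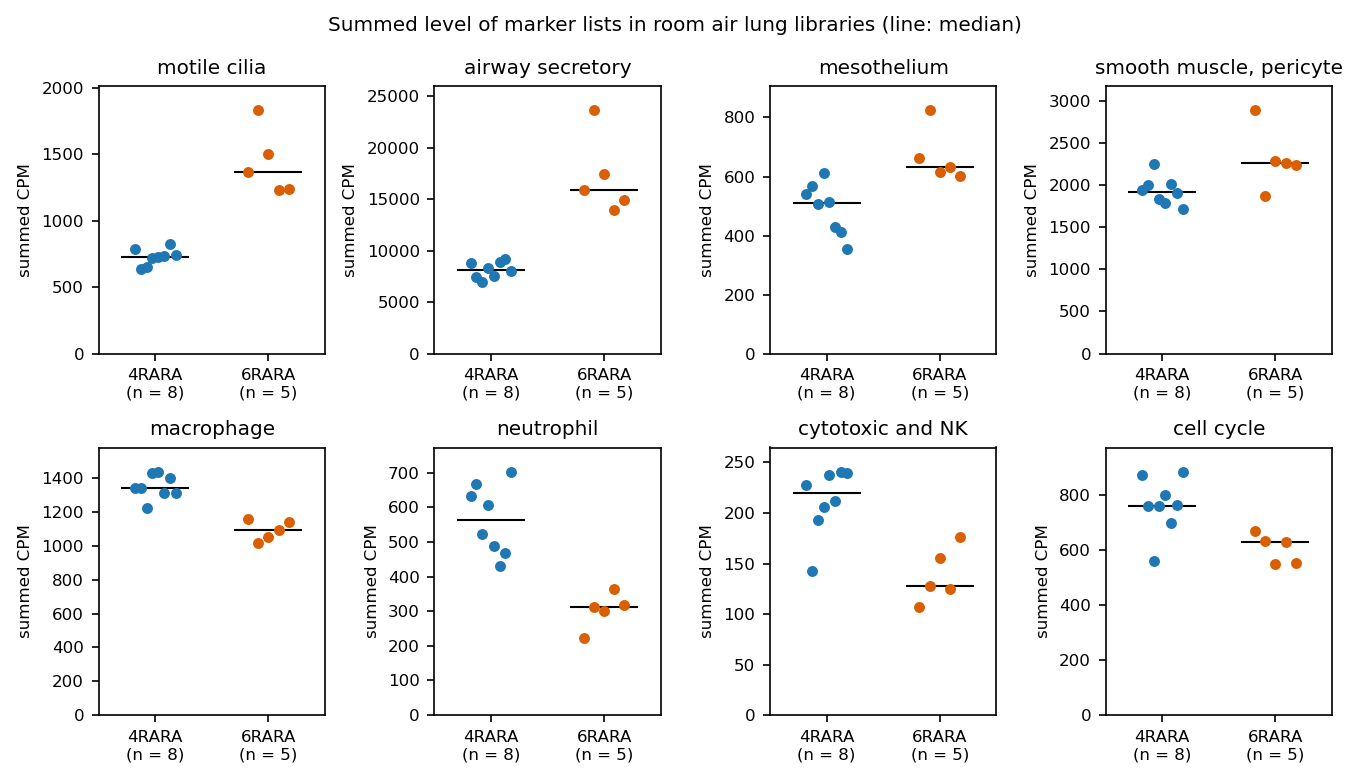
Summed level of selected marker lists in each lung (vertical axis in CPM, starting at 0, points are libraries, split by litter). The ciliary and secretory lists lie higher in all 5 lungs of 6RARA, the macrophage and neutrophil lists lower.

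Mesothelial genes rose: 3 of 4 were called, with a median of 1.18. That is 75.0% higher against 22.4% of all genes. The summed level overlapped slightly between the litters, at 354 to 611 CPM in 4RARA and 600 to 824 CPM in 6RARA. Msln, mesothelin, had 45 to 99.5 CPM in 4RARA and 182, 204, 114, 138 and 146 CPM in 6RARA (1.03 ± 0.18, adjusted p = 0.000534). Upk1b (1.33 ± 0.24) and the transcription factor Wt1 (1.43 ± 0.27) rose as well. The litters did not overlap at Msln and Upk1b, and met at Wt1, where 6RARA70 had 4.08 CPM and the highest 4RARA lung 4.34 CPM. The median was 2.15, 0.39 and 1.14 within batches 1, 2 and 3, and 0.75 with the intergenic share in the model, where none was called.

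Contractile and matrix genes were mixed, with elastin the clearest rise. Eln, the protein of elastic fibres (chr12:24978478-25021864), had 1309, 2114 and 2735 CPM as lowest, median and highest in 4RARA and 5794, 3415, 3807, 4476 and 4000 CPM in 6RARA (1.06 ± 0.15, adjusted p = 5.75e-05), with no overlap. Of 15 smooth muscle and pericyte genes 8 rose and 2 fell (median 0.41, and 0.26 without 6RARA65). The share called was 66.7% against 41.7% of all genes. Summed levels overlapped, at 1710 to 2251 CPM in 4RARA and 1872 to 2886 CPM in 6RARA. The list median was 0.07, 0.28 and 0.59 within batches 1, 2 and 3. With 6RARA68 included it was 0.31, with 4 members called higher and 1 lower, and the call of Pdgfrb was lost (0.31, adjusted p = 0.145). Lmod1 (0.79 ± 0.11), Pdgfrb (0.48 ± 0.08) and the intermediate filament Des (0.87 ± 0.12) rose, and the pericyte gene Rgs5 fell (−0.81 ± 0.09). Of 19 fibroblast and matrix genes 4 rose and 4 fell (median 0.09), a share called of 42.1% against 41.7% of all genes. Sparc rose (0.34 ± 0.06), and the glycoproteins Fn1 (−0.68 ± 0.12) and Tnc (−0.77 ± 0.14) fell.

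Alveolar and vascular genes had smaller medians. Called were 46.2% of type 2, 66.7% of type 1 and 52.4% of vascular endothelial genes, against 41.7% of all genes. Of 13 type 2 cell genes 1 rose and 5 fell (median −0.16). The phosphate transporter Slc34a2 had 2817 to 3328 CPM in 4RARA and 2292, 2236, 2234, 2705 and 2497 CPM in 6RARA (−0.37 ± 0.07, adjusted p = 0.000685), without overlap. The protease Napsa (−0.56 ± 0.11), the lysosomal protein Lamp3 (−0.48 ± 0.14) and fatty acid synthase Fasn (−0.77 ± 0.19) fell. Of 12 type 1 cell genes 2 rose and 6 fell (median −0.22), among them the basement membrane collagens Col4a3 (−0.75 ± 0.13) and Col4a4 (−0.89 ± 0.11), while Igfbp2 rose (0.91 ± 0.12). Of 21 vascular endothelial genes 8 rose and 3 fell (median 0.23). Egfl7 (0.76 ± 0.16) and Clec14a (0.40 ± 0.08) rose, whereas von Willebrand factor Vwf (−0.52 ± 0.10) and VE-cadherin Cdh5 (−0.49 ± 0.10) fell. Without 6RARA65, 6RARA67 or 6RARA70 the endothelial rises numbered 4, 4 and 3.

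The rises and falls tracked transcript length to a degree. With genes split by exon length into 10 groups of like size, the median log2 fold change over all genes went from 0.15 in the shortest group to −0.15 in the longest. Lower calls made up 11.0% of the shortest and 34.0% of the longest. The 15 genes of largest fall by the naming rule had a median exon length of 2730 bases, the 15 of largest rise 1476 bases, and all genes tested 2148 bases. Long transcripts that fell with no overlap include that of non-muscle myosin Myh9, with 10.1 to 14.7 CPM in 4RARA and 2.37, 1.89, 2.11, 2.77 and 3.63 CPM in 6RARA (−2.25 ± 0.16, adjusted p = 3.48e-07). The collagen receptor subunit Itga1 (−1.61 ± 0.12), the kinesin Kif21b (−1.57 ± 0.13) and the transcriptional cofactor Hcfc1 (−1.33 ± 0.09) did the same. When each gene was centred on its length group, the list medians were 1.02 for cilia, −0.43 for macrophages and −1.03 for neutrophils. With the set of altitude genes counted, 42 of 43 lists moved by less than their spread when centred so, and the list of Schwann cells and nerve moved from 0.39 to 0.30. Cytotoxic cells stood at −0.84, T cells at −0.38, cholesterol synthesis at −0.38 and smooth muscle at 0.30. The small medians of the respiratory chain (−0.07) and ribosomal protein (−0.05) lists, the latter with the S6 kinases, changed sign.

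Genes of myeloid cells were lower in 6RARA. Of 15 macrophage genes none rose and 8 fell (median −0.43). That is 53.3% called, all lower, where 41.7% of all genes were called and 19.3% were lower. The summed level was 1224 to 1438 CPM in 4RARA and 1015 to 1157 CPM in 6RARA. Marco, a scavenger receptor of alveolar macrophages (chr16:85115199-85147683), had 3.07, 4.04 and 5.34 CPM as lowest, median and highest in 4RARA. In 6RARA it was at 0 in 4 lungs and at 0.102 CPM in 6RARA72. That is 620 counts over the 8 lungs of 4RARA against 2 over the 5 of 6RARA, a ratio of 173 per sequenced count with a 95% counting interval of 47.6 to 1430 (adjusted p = 1.64e-07). Marco was at 0 counts in 6RARA68 too, and had 26 counts in all over the 14 altitude lungs. The shallow library 6RARA66 went the other way, with 11 counts of Marco, which is 10.7 CPM without TMM scaling against at most 5.35 CPM in 4RARA on that scale.

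Of the 14 other macrophage genes 7 fell, by 0.38 to 1.28 on the log2 scale, and 7 did not pass the test (−0.49 to 0.09). Adgre1, which encodes F4/80, had 17.6 to 32.8 CPM in 4RARA and 8.53, 7.46, 13.3, 11.1 and 14.8 CPM in 6RARA (−1.28 ± 0.14, adjusted p = 5.42e-06). The growth factor receptor Csf1r (−0.70 ± 0.07) and the scavenger receptor Msr1 (−0.94 ± 0.13) fell too, all 3 without overlap. Cybb, the catalytic subunit of the phagocyte oxidase (chrX:14578330-14610049), had the lowest p of all genes. It had 130, 153 and 178 CPM as lowest, median and highest in 4RARA and 59.9, 55.3, 71.4, 63 and 77.6 CPM in 6RARA (−1.24 ± 0.07, adjusted p = 7e-08). The macrophage median was −0.51, −0.63 and −0.25 within the batches and −0.49 with the intergenic share in the model. Of 7 monocyte genes 4 fell and none rose (median −0.41), 57.1% lower against 19.3% of all genes. Those that fell included the integrin Itgam (−1.50 ± 0.14) and the chemokine receptor Cx3cr1 (−1.24 ± 0.28). The monocyte median was −0.19, −0.02 and −0.77 within the batches, −0.19 with 6RARA68 and −0.04 with the intergenic share in the model, where 1 member was called. The summed monocyte level had a median of 21161 CPM in 4RARA and 23617 CPM in 6RARA.

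Dsg3, a desmosomal cadherin of squamous epithelium that is no marker in these lists, had a pattern like that of Marco and was named after its values were seen. It had 713 counts in 4RARA and 2 in 6RARA (ratio 199, 95% counting interval 54.8 to 1644). In 4RARA the level reached 9.59 CPM and was at 0 in animal 4RARA39. Its counts were 0 in 6RARA68 and 6 over the 14 altitude lungs. Here too 6RARA66 stood apart from its littermates, with 13 counts, or 12.6 CPM without TMM scaling against at most 9.60 CPM in 4RARA on that scale.

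Neutrophil genes had the largest median fall of the lists with 5 or more members called. Of 12 tested 7 fell and none rose, with a median of −0.98. That is 58.3% called, all lower, where 41.7% of all genes were called and 19.3% were lower. The summed level was 430 to 702 CPM in 4RARA and 224 to 364 CPM in 6RARA. Cxcr2, a chemokine receptor of neutrophils, had 5.16 to 11.1 CPM in 4RARA and 3.17, 3.02, 2.11, 3.85 and 3.01 CPM in 6RARA (−1.48 ± 0.19, adjusted p = 2.51e-05). The growth factor receptor Csf3r had 37.4 to 63.7 CPM against 24.3, 21.8, 27.4, 28.4 and 25.1 CPM (−1.08 ± 0.12). Both were apart between the litters in every lung. The granule protease Mmp8 (−1.35 ± 0.31) and the surface protein Cd177 (−1.21 ± 0.30) fell with overlap. Retnlg, a resistin-like protein of neutrophils in mice, was the largest fall by the naming rule (−2.82 ± 0.34, adjusted p = 2.82e-05), with 7.80 to 38.8 CPM in 4RARA and 1.95 to 3.61 CPM in 6RARA. The neutrophil median was −1.48, −0.80 and −1.07 within the batches and −1.15 with the intergenic share in the model. The left-out 6RARA68 did not share the low level: its summed neutrophil level was 548 CPM, within the 427 to 693 CPM of 4RARA on the scaling shared by all lungs.

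Most genes of cytotoxic and natural killer cells fell. Of 13 tested 11 fell and none rose, with a median of −0.71. That is 84.6% called, all lower, where 41.7% of all genes were called and 19.3% were lower. Ccl5, a chemokine of these cells, had 31.2 to 47.6 CPM in 4RARA and 19.1, 21.7, 26.7, 15.0 and 30.4 CPM in 6RARA (−0.92 ± 0.14, adjusted p = 0.000117), without overlap. The receptors Klrk1 (−0.90 ± 0.15) and Ncr1 (−0.79 ± 0.15) and the granzyme Gzmk (−0.86 ± 0.15) overlapped between litters. The median was −0.54, −0.48 and −1.13 within the batches and −0.53 with the intergenic share in the model, where none of the 13 was called. Here too 6RARA68 differed from its littermates, with a summed level of 276 CPM against 105 to 171 CPM in the 5 lungs compared and 141 to 238 CPM in 4RARA. With it included, 3 of the 13 genes were called and the median was −0.33.

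Other leukocyte lists fell in part or were mixed. Of 15 T cell genes 6 fell and none rose (median −0.29), where 41.7% of all genes were called and 19.3% were lower. Those that fell included Cd4 (−1.12 ± 0.11), the costimulatory receptor Cd28 (−1.02 ± 0.21) and Cd8b (−0.87 ± 0.21). Cd3d (0.15 ± 0.19), Cd3g (0.07 ± 0.17), Cd3e (−0.11 ± 0.15) and Cd2 (−0.22 ± 0.14) were among those that did not pass the test. The T cell median was −0.24 and −0.63 within batches 1 and 3, 0.27 within batch 2, which holds a single 6RARA lung, and 0.19 with the intergenic share in the model, a measure that separates the litters. Of 9 dendritic cell genes 5 fell and none rose (median −0.46), 55.6% lower against 19.3% of all genes. Irf8 (−0.83 ± 0.17), Zbtb46 (−0.49 ± 0.15) and Flt3 (−0.46 ± 0.14) were among them. That median was −0.04 with the intergenic share in the model, and 3 members were called without 6RARA65 or without 6RARA67. Of 12 B and plasma cell genes 2 rose and 4 fell, with the receptor Cd22 lower (−0.94 ± 0.13) and the transcription factor Pax5 higher (0.80 ± 0.21, and 0.64 with an adjusted p of 0.0516 without 6RARA67). Of 10 mast cell genes 2 rose and 3 fell: Hdc, which makes histamine, rose (0.89 ± 0.16) as did Gata2 (0.72 ± 0.14), while the protease Cpa3 (−1.18 ± 0.35) and the receptor Kit (−0.41 ± 0.08) fell. The call of Cpa3 was lost without 6RARA67 (−1.01, adjusted p = 0.0582). In the B and plasma cell list and in the mast cell list 50.0% were called, in both directions, against 41.7% of all genes.

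**Figure D3:**
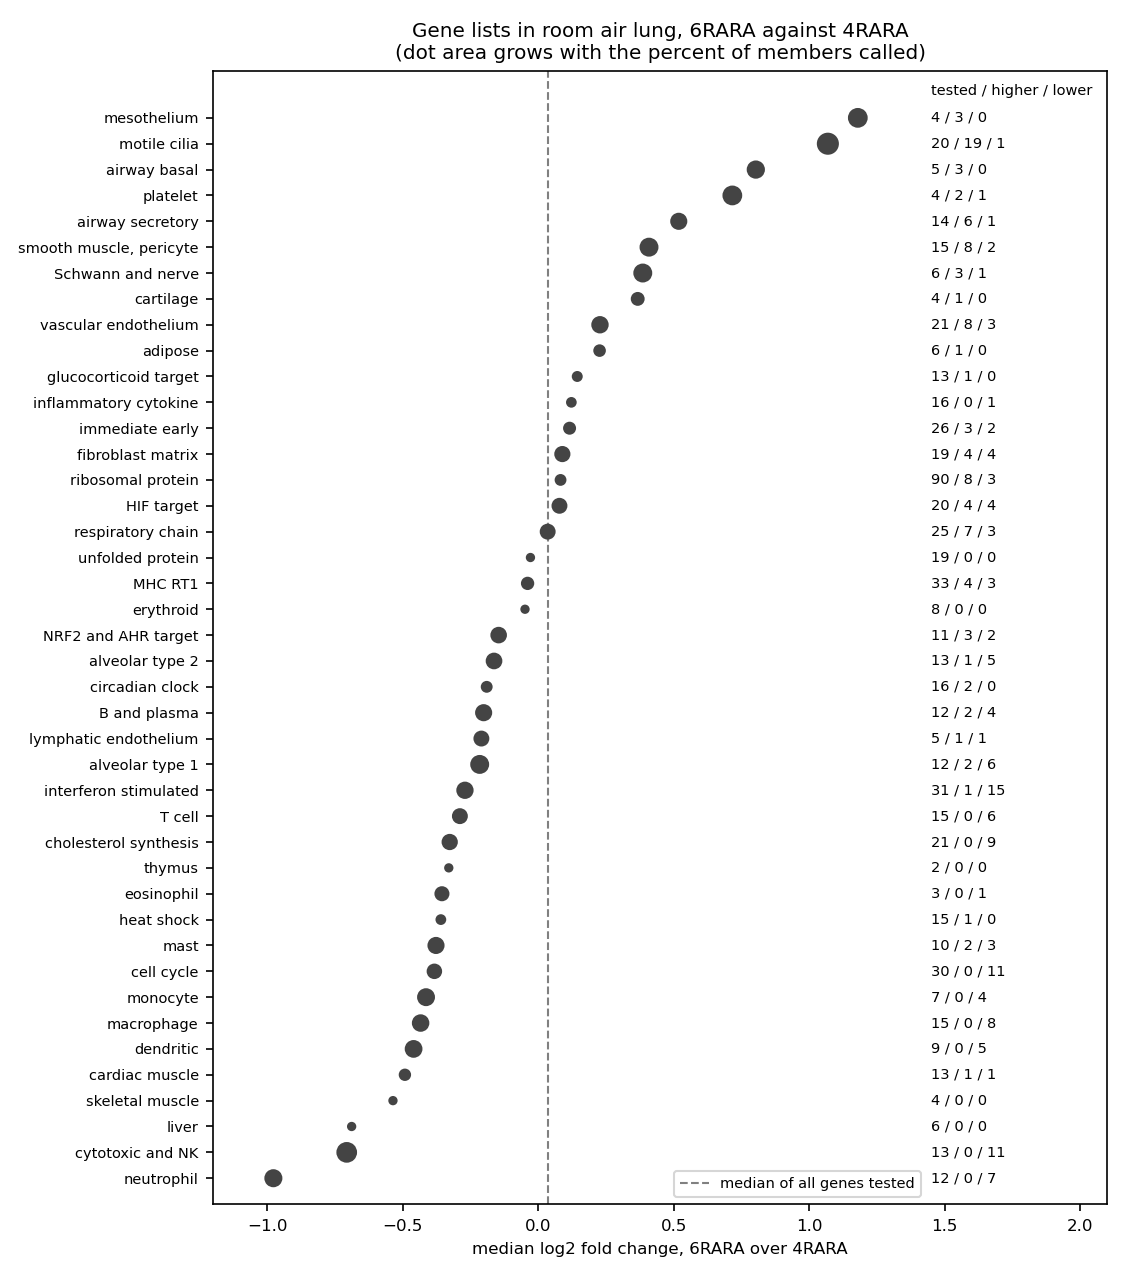
Median log2 fold change (6RARA over 4RARA, horizontal axis) of the marker and pathway lists with the number of members called in each direction. Airway and mesothelial lists lie to the right of the all-gene median of 0.04, neutrophil, cytotoxic and macrophage lists to the left.

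Interferon-stimulated genes were lower in 6RARA by a modest amount. Of 31 tested 1 rose and 15 fell, with a median of −0.27. The share called was 51.6% against 41.7% of all genes, and the share that fell 48.4% against 19.3%. Irf7, the transcription factor that amplifies type I interferon, had 53.9 to 115 CPM in 4RARA and 34.4, 29.1, 49.3, 35.3 and 53.2 CPM in 6RARA (−1.04 ± 0.15, adjusted p = 5.4e-05), so the litters came close but did not overlap. The antiviral enzyme Oas2 (−1.21 ± 0.17), the ubiquitin ligase Dtx3l (−0.91 ± 0.12) and the RNA sensor Ifih1 (−0.67 ± 0.11) fell. The member that rose was Cmpk2 (0.21 ± 0.08, adjusted p = 0.0357), named after its values were seen. Its call was lost in 8 of the 13 fits that each left out 1 library. The list median was −0.02, −0.18 and −0.46 within batches 1, 2 and 3.

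Of 33 genes of the RT1 complex, the rat major histocompatibility complex, 4 rose and 3 fell (median −0.04). The share called was 21.2%, below the 41.7% of all genes. The class II gene RT1-Da fell (−0.40 ± 0.09) and the class I gene RT1-CE14 rose (0.65 ± 0.11). RT1 genes have near-identical copies that may share reads, and their values are uncertain for that reason.

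Proliferation and sterol genes were lower in part. Of 30 cell cycle genes none rose and 11 fell (median −0.38). All calls were lower, at 36.7% of cell cycle and 42.9% of cholesterol synthesis genes. Of all genes 41.7% were called in either direction and 19.3% lower, so the lists stood apart by direction and not by the share called. The replication helicase subunit Mcm5 had 15.2 to 27 CPM in 4RARA and 10.5, 10.5, 13.3, 11.6 and 10.7 CPM in 6RARA (−0.92 ± 0.14, adjusted p = 8.26e-05), without overlap. Mcm2 (−0.59 ± 0.09), Mcm3 (−0.67 ± 0.11) and thymidylate synthase Tyms (−0.78 ± 0.11) fell likewise. The cell cycle median was −0.64, −0.45 and −0.30 within the batches. Without 4RARA40, 18 cell cycle genes were called lower. Of 21 cholesterol synthesis genes none rose and 9 fell (median −0.33). The carrier Stard4 had 45.9 to 63 CPM against 29.4, 30.9, 31.6, 29.7 and 33.2 CPM (−0.81 ± 0.07, adjusted p = 1.7e-06), apart in every lung, and Lss (−0.98 ± 0.13) fell too. The sterol median was 0.01 within batch 2 and 0.29 with the intergenic share in the model.

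Several programmes had few calls or calls in both directions. Of 20 hypoxia-inducible genes 4 rose and 4 fell (median 0.08), with Vegfa, the endothelial growth factor, higher (0.44 ± 0.09). The call of Vegfa was lost with 6RARA68 included (0.27, adjusted p = 0.226). Of 25 respiratory chain genes 7 rose and 3 fell (median 0.03). In both lists 40% of the genes were called, close to the 41.7% of all genes. Of 81 ribosomal protein genes 7 rose and none fell (median 0.09), and of 9 S6 kinase genes, which share their name prefix, 1 rose and 3 fell. No unfolded protein gene of 19 and no erythroid gene of 8 was called. Of 16 circadian clock genes 2 rose and none fell. The share called was 12.5% for clock genes and 12.2% for ribosomal protein genes with the S6 kinases, below the 41.7% of all genes. Markers of tissues that a piece of lung could carry along were mostly not called: 1 rose and 1 fell of 13 heart muscle genes, and none was called of 4 skeletal muscle, 6 liver and 2 thymus genes. Over all 42 lists, 10 held calls only lower in 6RARA, 7 only higher, 20 both and 5 none.

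**Figure D4:**
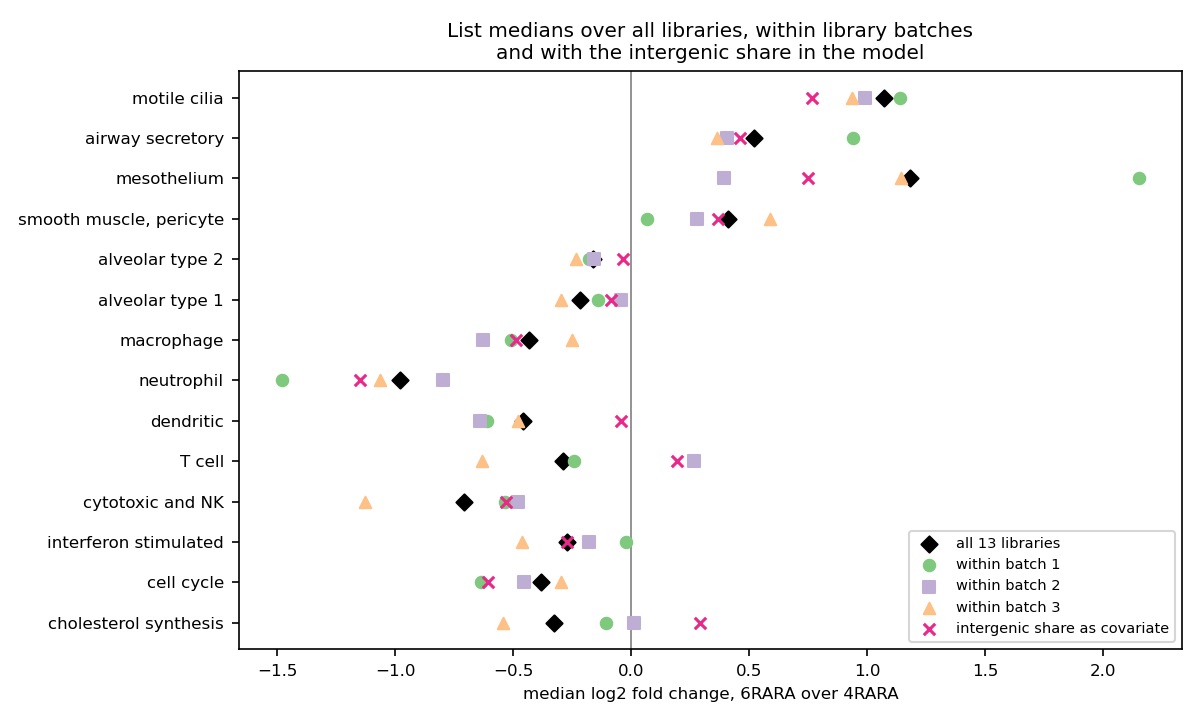
Median log2 fold change of 14 lists (horizontal axis) over all 13 libraries, within each library batch, and with the intergenic share in the model. The ciliary and neutrophil medians stay on their side in all 5 fits, those of T cells and cholesterol synthesis do not. Batch 1 holds 1 lung of 4RARA and batch 2 holds 1 of 6RARA.

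Single animals also stood apart from their litters. Animal 4RARA39 had a heat shock pattern: it was the highest lung of all 13 at 14 of 15 heat shock genes and over 5 times the highest other lung at 7. Hspa1a, an inducible HSP70 chaperone, had 3636 CPM in 4RARA39 and 5.31 to 39.8 CPM in the other 12 lungs. Hsph1, a partner of HSP70, had 3786 CPM in that animal and 73.8 to 204 CPM in the others. The right ventricle of the same animal had 3352 CPM of Hspa1a, against 3.68 to 9.84 CPM in the 10 other room air ventricles, so the high level was present in both organs. The list median was −0.36 with this animal and 0.18 without it, where 7 members were called higher and 1 lower.

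Other genes were on in some littermates and off in others, and these were named after their values were seen. Ifit1, an interferon-inducible antiviral protein (chr1:252944104-252946170), had 21.7, 22.4 and 30.8 CPM in 4RARA39, 4RARA41 and 4RARA42 and 1.36 to 2.29 CPM in the 5 other lungs of the litter, on a scaling that includes 6RARA68. The right ventricles of these 3 animals had 12 to 21.4 CPM and those of 4 littermates 0.158 to 0.335 CPM. All 6 lungs of 6RARA were low, at 0.744 to 1.90 CPM. Its litter difference (−3.11 ± 1.12, adjusted p = 0.0466) thus rested on 3 of 8 animals, and was −1.90 without 4RARA42 (adjusted p = 0.152).

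RT1-Bb, a class II gene, was at 104 to 110 CPM in 5 lungs of 4RARA and at 0.101 to 0.173 CPM in 4RARA39, 4RARA43 and 4RARA45. In 6RARA it was at 68.8 to 163 CPM in 4 lungs and at 0.131 CPM or less in 6RARA67 and 6RARA70. The right ventricles followed the lungs of the same animals, with 13.3 to 31.9 CPM in the 8 high animals and at most 0.334 CPM in the 3 low ones that gave a ventricle. Both litters thus held high and low animals, in both sexes. Lypd8 was high in 6RARA65, 6RARA68 and 6RARA72, at 22.5 to 33.1 CPM, and at most 0.795 CPM in the 11 other lungs on that scaling. Ly6al was at 74.2 to 189 CPM in 5 lungs of 4RARA and 61.3 to 94.0 CPM in 3 of 6RARA, and at 0.918 to 2.41 CPM in the rest.

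**Figure D5:**
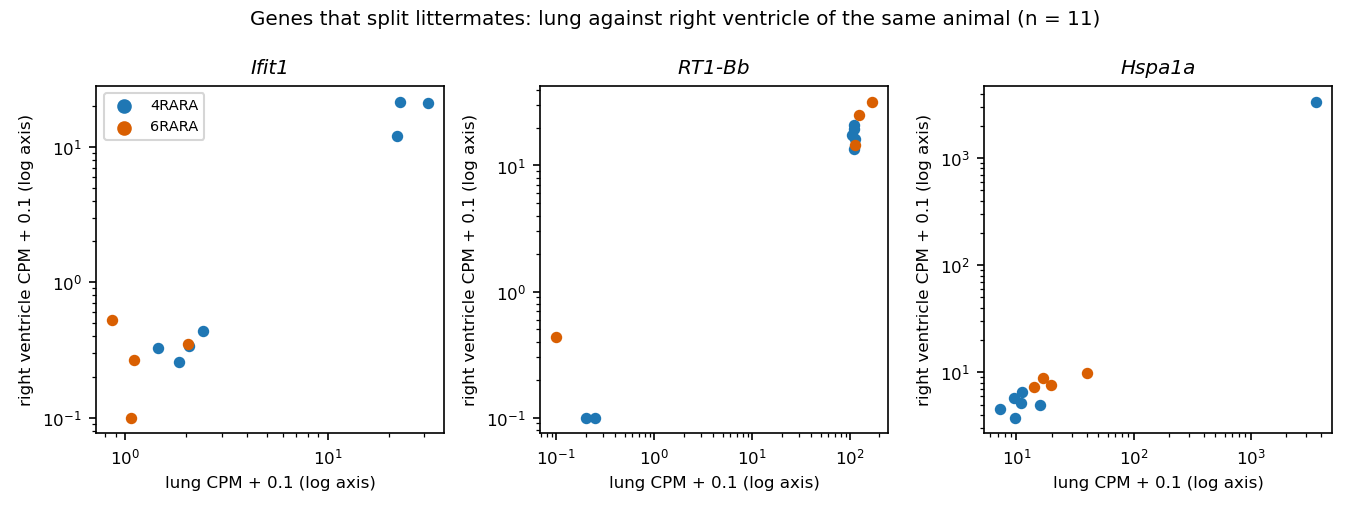
Level of Ifit1, RT1-Bb and Hspa1a, in lung (horizontal axis) and right ventricle (vertical axis) of the same room air animals, both as CPM + 0.1 on log axes (points are 11 animals). The animals high in lung were those high in right ventricle.

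The sexes were compared within the litter difference. No gene of 12220 (0%) passed the adjusted threshold for an interaction of litter and sex by the edgeR quasi-likelihood test, and 1288 had an unadjusted p under 0.05. DESeq2 called 92. The ciliary median was 1.26 in females and 0.85 in males, the neutrophil median −1.09 and −0.94. Whether these medians differed between sexes was not tested.

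The spread between room air litters is set beside the altitude litters on a scaling shared by all 29 lungs, with no test, since litters are single families. The summed ciliary level was 632 to 811 CPM in 4RARA and 1196 to 1775 CPM in 6RARA, and 641 to 1137 CPM in 3HH and 378 to 1261 CPM in 4HH. The neutrophil level was 427 to 693 CPM and 218 to 353 CPM in the room air litters, and 227 to 395 CPM and 207 to 868 CPM in 3HH and 4HH. For both lists the altitude lungs covered most of the gap between the room air litters. Of 11 genes that an earlier comparison of altitude with room air in these data had brought forward, 4 were called between the unexposed litters (36.4%), a share no larger than the 41.7% of all genes. Cyp1a1, an enzyme of xenobiotic metabolism, had 33.7 to 132 CPM in 4RARA and 24.6 to 62.8 CPM in 6RARA (−0.82 ± 0.26), and the neurotrophin receptor Ntrk2 33.7 to 114 CPM and 34.5 to 55.1 CPM (−0.58 ± 0.22). The lymphatic receptor Lyve1 (0.44 ± 0.15) and Gpihbp1, which anchors lipoprotein lipase on capillaries (0.56 ± 0.19), were higher in 6RARA. Slc26a10, Abcb1b, Col6a4, Mcpt1l1, Sox9, Cxcr4 and Slc6a4 did not pass the test, with log2 fold changes of −0.35 to 0.45. The calls were lost when single libraries were left out, among them 6RARA67 (adjusted p = 0.139 for Ntrk2, 0.0557 for Cyp1a1, 0.0735 for Lyve1 and 0.0941 for Gpihbp1).

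The right ventricles of the same litters, 7 of 4RARA and 4 of 6RARA, differed at 7369 of 11407 genes (64.6%), 3779 higher (33.1%) and 3590 lower (31.5%). The 6RARA ventricles had RNA integrity numbers of 5.8 to 7.4 and 91.8 to 713 CPM of the lung gene Sftpc, against 1.15 to 73.7 CPM in 4RARA. The liver gene Alb had 14.2 to 1247 CPM in them, against 0.151 to 4.09 CPM. The 2 female ventricles of 6RARA had 2.92 and 10.3 CPM of Ddx3, a gene of chromosome Y, and the 4 of 4RARA at most 0.167 CPM. These ventricles thus held reads foreign to the organ or sex, and their source was not tested. For Cybb the ventricle difference was −2.20 and for Itga4, an integrin of leukocytes, −1.66, next to −1.24 and −1.60 in lung. For Csf3r it was 0.52 (adjusted p = 0.088) next to −1.08 in lung, and for Mmp8 1.48 next to −1.35. Whether lung and ventricle differed was not tested.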

How the data were processed

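Lung and right ventricle RNA of rats was sequenced as poly(A) libraries made with a KAPA mRNA HyperPrep kit and run on a HiSeq 4000, per the labels' protocols. The submitters' processing notes name FastQC, MultiQC 0.11.5, STAR 2.5, featureCounts 1.5.1 and the rn6 build. The values used are the read counts that the authors deposited, unscaled per the file headers, of 12650 lung and 12199 right ventricle genes that they kept by a filter not given in the sources used here. The deposited percent values of the libraries (reads in genes, introns, between genes and mitochondrial) are the authors' mapping statistics, per the file headers. Library batch is the value headed Batch # for each library in the authors' run information, and that header does not say which step the batch stands for. Coordinates are those of the deposited tables.

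The fit used edgeR 4.0.16 (R 4.3.3): filterByExpr (minimum count 10, minimum total 15), TMM scaling, a robust quasi-likelihood fit of litter and sex, and Benjamini-Hochberg adjustment over all genes tested. An adjusted p is from this test unless another is named. The SE is the log2 fold change divided by the square root of F. CPM is scaled by TMM. The procedure was tested on simulated data. Alternatives used limma 3.58.1 (voom) and DESeq2 1.42.0, other scalings and filters, batch, RNA integrity or intergenic share as covariates, single batches or sexes, and other sets of libraries. Those with 6RARA68 added, centred on length, and without 4RARA39 and 6RARA67 were chosen after seeing the data. Exact permutation tests compared library measures.

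Members and gene lists were chosen with earlier results of these data known. Named genes are the 15 largest rises and 15 largest falls among called genes without overlap and with a mean of at least 5 CPM in the higher litter, the up to 4 called genes of lowest p in each list, the 5 genes of lowest p, and a set of altitude genes. Some genes that this rule names are not reported here. The RefSeq windows were matched by symbol and chromosome, and 48 on another chromosome were left out. Counting intervals and ratios cover counting error only.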

Additional observations from a re-analysis of the deposited data

Results flagged for a closer look

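Among 360 sets of values of 1 gene, list or library measure in 1 litter, 27 held a library far from its littermates. Chance gives about 1 in 20 for independent sets. These sets share genes, so the number cannot be judged against that share. Of the 27 sets, 12 were in 4RARA39 and 6 in 6RARA67. Hspa1a, Hsph1, Dnajb1, Bag3 and Hspb1 were not called between the litters, so the naming rule did not choose them. They are among the sets of 4RARA39, and the summed heat shock list counts them again. What sets the animals apart was not tested.

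In 4RARA39 the heat shock genes stood out: Hspa1a at 3636 CPM, Hsph1 at 3786 CPM, Dnajb1 at 1207 CPM, Bag3 at 871 CPM and Hspb1 at 3339 CPM, next to at most 15.9, 133, 110, 51 and 267 CPM in the nearest littermates. Hspa4l was at 27.5 CPM. The summed heat shock list reached 23457 CPM in this animal, that of immediate early genes 5226 CPM, of unfolded protein genes 6930 CPM and of NRF2 and AHR targets 1464 CPM. Foxj1 at 86.1 CPM and the ribonuclease RNA Rmrp at 3.17 CPM were also highest there.

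In 6RARA67 the ciliary gene Ak7 was at 68.2 CPM with the next littermate at 47 CPM, Rmrp at 27.1 CPM, Krt17 at 1.60 CPM and Hspa1a at 39.8 CPM. Its summed basal cell and mesothelial lists reached 36.6 and 824 CPM.

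Animal 6RARA65 was highest of its litter in the summed lists of Schwann cells and nerve (1112 CPM), fat (532 CPM) and mast cells (485 CPM), and lowest in monocytes (16991 CPM). Single values also stood apart elsewhere. Marco was at 0.102 CPM in 6RARA72 with 0 in the other lungs of the litter, which is 2 counts. Hdc was lowest in 6RARA71 at 10.5 CPM, Des highest in 4RARA40 at 110 CPM, and in 4RARA41 the basal cell list was highest at 31.7 CPM and the mitochondrial share lowest at 2.12%.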

How the results depend on the processing

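The litter difference in room air lung, 5090 genes called, came to 37, 620 and 2020 genes within batches 1, 2 and 3, to 842 with the intergenic share as a covariate, to 2568 in females and to 3341 in males, and those fits rest on fewer libraries (1 lung of 4RARA in batch 1 and 1 of 6RARA in batch 2) or a covariate that separates the litters. With batch as a covariate 4246 genes were called. Leaving out each library in turn gave 3806 to 5323 genes. With 6RARA68 it was 4061 genes and with 6RARA66 as well 3792. The litter by sex interaction in room air lung, with no gene called, gave 92 by DESeq2 and 0 to 10 leaving out each library, with 10 genes without 4RARA41. The higher share of calls was 53.7%, and 49.4% with the scaling of DESeq2.

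Of 123 named genes, all called, 3263 of 3688 values under other settings kept direction and call, 416 kept the direction only and 9 reversed. Nearly all these genes were named because they were called, and most settings share most of the libraries, so a large kept share was likely beforehand. The kept genes were fewer with the intergenic share in the model (47 of 123) and within batch 3 (91 of 123). They were fewest within batches 1 and 2, where 1 litter is a single lung, so those counts are not given. The reversed log2 fold changes were, with the intergenic share, Rbm39 −0.18, Napsa 0.035, Cd8b 0.028, Cpa3 0.16, RT1-Da 0.013 and Lyve1 −0.28, within batch 1 Cd177 0.17 and Cd8b 0.14, and within batch 2 Cd8b 0.044. The cause was not tested. Leaving out 1 library reversed none of them, and 11 lost their call in some such fit. With 6RARA68 added 9 lost their call: Lamp3, Cdh5, Pdgfrb, Cd8b, Gzmk, Ncr1, Vegfa, RT1-Da and Cyp1a1. The list medians of cilia, secretory cells, macrophages, neutrophils, cytotoxic cells and the cell cycle kept their sign in all 31 settings, with ranges of 0.77 to 1.26, 0.30 to 0.97, −0.63 to −0.25, −1.48 to −0.74, −1.13 to −0.33 and −0.64 to −0.16. Other lists did so too, among them lists with few or mixed calls such as heart muscle and NRF2 and AHR targets. Keeping the sign is thus not particular to the lists named first.

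No paired analysis was possible because the litters share no animal numbers. Depth of 14.3e+06 counts or more limits few of the named genes, but those under about 1 CPM rest on few reads.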
